A study of Homo sapiens with 9 samples.

Results

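The genes described here build the telomerase enzyme or cap the chromosome ends it extends, as read in Daudi, a human line of Burkitt lymphoma B cells, a tumour defined by MYC translocated to an immunoglobulin locus. They were chosen by name: TERT, the catalytic subunit; DKC1, NHP2, NOP10 and GAR1, the H/ACA proteins that bind telomerase RNA; and TERF1, TERF2, TINF2, POT1 and ACD, members of the shelterin complex. Of these 10 genes, 9 had at least 1 probe set annotated with that symbol alone, of 19775 genes with such a probe set on the array. DKC1 had none: its 3 probe sets are annotated jointly with MIR664B and SNORA56, and their values are given below on their own and kept out of every count.

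All cells were Daudi cells grown in the same serum-supplemented medium, infected with an shRNA construct and kept under puromycin for 48 h before total RNA was taken. They carried a hairpin against MYC (C-Myc-sh), which the study used as a positive control, a hairpin against SLC7A5 (Slc7a5-sh), the light chain of a transporter of large neutral amino acids, or a control hairpin (Ctrl-sh). Each group had 3 arrays labelled as biological replicates, 9 in all. The labels do not say whether the cells of each replicate were infected separately; p-values therefore measure only the spread between these samples, which may be technical.

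Telomerase copies telomere repeats onto chromosome ends from an RNA template. TERT does the copying, while the H/ACA proteins, which also bind the small nucleolar and Cajal body RNAs that guide pseudouridylation, stabilise the template RNA. Shelterin covers the repeats: TERF1 and TERF2 bind double-stranded telomeric DNA, POT1 binds the single-stranded overhang, ACD (TPP1) pairs with POT1 and recruits telomerase, and TINF2 (TIN2) bridges them. TERT is kept silent in most somatic cells and is a textbook direct target of MYC, which binds the E-box CACGTG.

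Signals are scaled so that all arrays have nearly the same trimmed mean, and the median log2 signal of an array was 6.05 to 6.26. In total, 11250 genes reached the filter level, a mean log2 signal of 5.77, and were tested. MYC, read as a check of the hairpins, had a log2 signal of 12.13 ± 0.01 in C-Myc-sh and 12.87 ± 0.07 in Slc7a5-sh, against 13.22 ± 0.05 in Ctrl-sh (SD, n = 3). SLC7A5 had 11.80 ± 0.03 in C-Myc-sh and 11.89 ± 0.06 in Slc7a5-sh, against 12.21 ± 0.15 in Ctrl-sh, so that each target was also lower under the other hairpin. SLC7A5 was at 80.0% of control under its own hairpin and 75.4% in C-Myc-sh. Those 2 groups did not pass a direct test for it (limma adjusted p = 0.351). The 5 measured B-cell markers (MS4A1, CD79A, CD79B, PAX5 and CD22) were above the filter level, with a summed linear signal of 36460 to 39950 in C-Myc-sh and 24600 to 25440 in Slc7a5-sh, against 27000 to 30360 in Ctrl-sh. Single B-cell markers moved both ways: in C-Myc-sh PAX5 (log2 change 0.62) and CD79B (0.39) rose while CD22 (-1.25) and MS4A1 (-0.21) fell, and in Slc7a5-sh CD79B (0.28) rose while PAX5 (-0.64), CD22 (-0.63) and MS4A1 (-0.30) fell. All 4 measured myeloid markers and 6 of 8 T and NK cell markers were below it. The summed linear signal of the T and NK markers was 389.2 to 417 in C-Myc-sh and 400.8 to 510 in Slc7a5-sh, against 581.2 to 636.3 in Ctrl-sh. Of the 8 epithelial and fibroblast markers 5 were above the filter level. The summed signal over the 8 was 583.5 to 826.8 in C-Myc-sh and 669.2 to 732.9 in Slc7a5-sh, against 741 to 860.2 in Ctrl-sh. Of the 5, only COL1A1 passed the test, and it fell in C-Myc-sh (-0.59) and Slc7a5-sh (-0.71). Without passing, VIM (1.01 and 0.63) and KRT8 (0.14 and 0.99) were higher in C-Myc-sh and Slc7a5-sh. KRT18 (-1.07 and -0.53) and DCN (-0.37 and -0.20) were lower, also without passing. The part of these marker differences in the results was not tested. A scaled signal from bulk RNA does not tell fewer expressing cells from less RNA per cell.

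In C-Myc-sh, TERT showed the deepest fall of the telomerase and telomere genes, and NHP2 and GAR1 dropped to 46.7% and 52.4% of control. Shelterin moved unevenly there: ACD fell most, TERF1, TERF2 and POT1 fell less, and TINF2 rose. All 9 measured genes passed the test, 8 lower and 1 higher, where 54.9% of all tested genes passed, 26.2% lower and 28.7% higher (limma, Benjamini-Hochberg adjusted p under 0.05). Their median log2 change was -0.45, and -0.43 without TERT, against 0.04 over all tested genes. In Slc7a5-sh, 3 of the 9 passed, 2 lower and 1 higher, where 25.3% of all tested genes passed, 11.0% lower and 14.3% higher. There the median of the 9 was -0.0077 against 0.03 over all tested genes. Both comparisons use the same 3 control arrays. The genes had been chosen with earlier results of these data known, so these counts are not independent evidence.

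**Figure D1:**
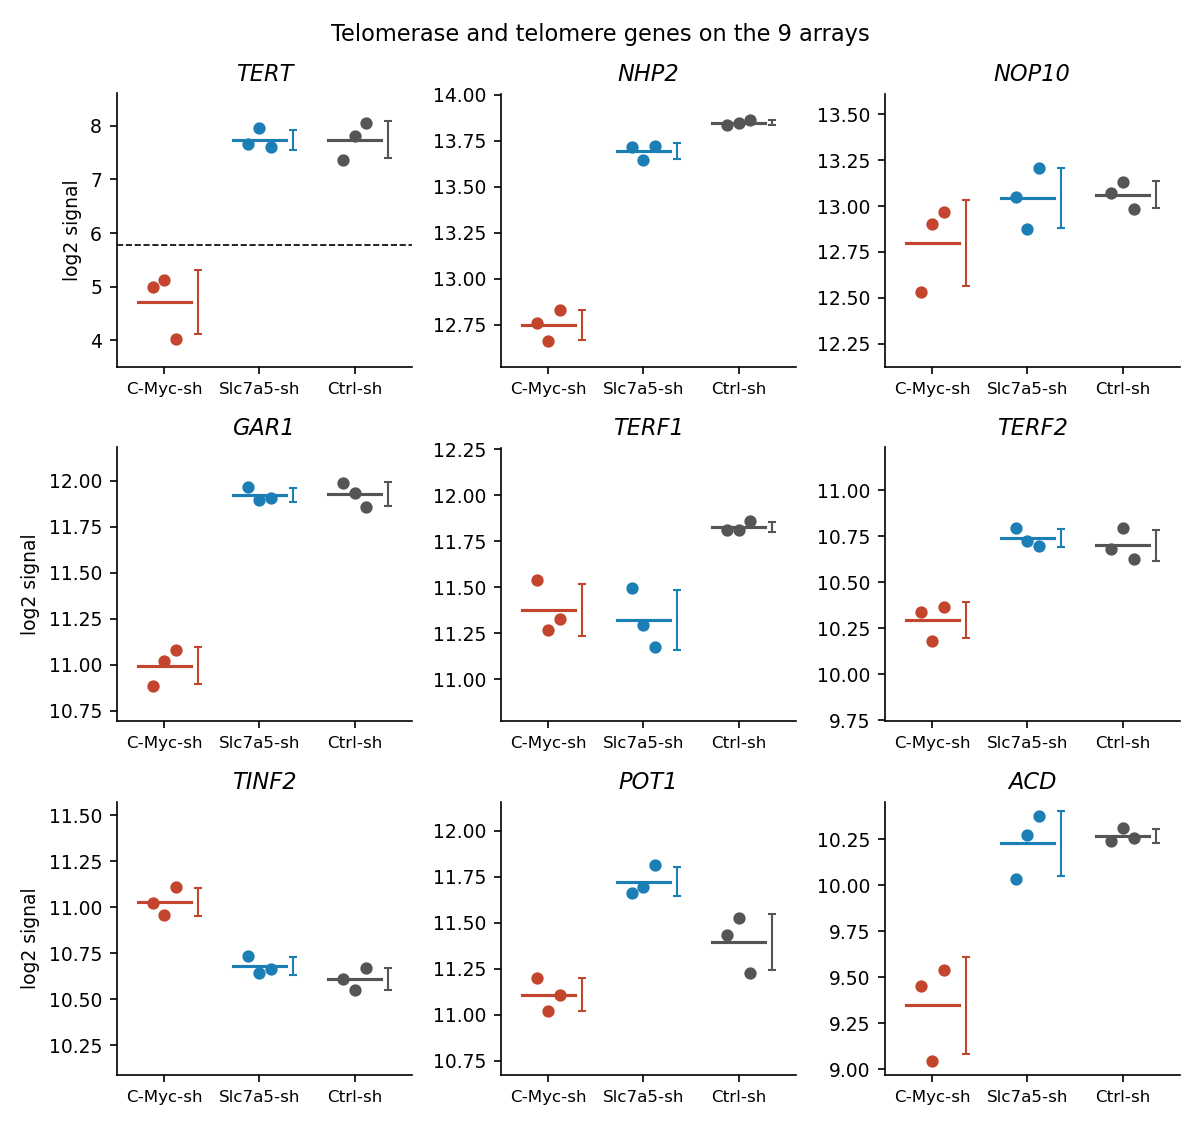
Log2 signal (vertical axis) of the 9 measured genes in C-Myc-sh, Slc7a5-sh and Ctrl-sh, with a point for each array, a line at the mean of 3 arrays and a bar of 1 SD on either side. The axes differ between panels; the dashed line in the TERT panel is the filter level of 5.77, above which no C-Myc-sh array lies.

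TERT had log2 signals of 4.99, 5.13 and 4.03 in C-Myc-sh, 7.66, 7.95 and 7.60 in Slc7a5-sh, and 7.36, 7.80 and 8.05 in Ctrl-sh. All 3 C-Myc-sh arrays lay below the other 6, which overlapped each other. The change in C-Myc-sh against Ctrl-sh was -3.02 (SE 0.38; 95% confidence interval -3.84 to -2.21; limma adjusted p = 7.43e-06). All C-Myc-sh arrays were below the filter level, where the signal is poorly measured, and TERT entered the test through its signal in the other 2 groups. With values under that level raised to it, the difference was 3.91-fold (log2 change -1.97, SE 0.25). That value is limited by the filter level and does not estimate the size of the fall. The C-Myc-sh arrays then all hold the filter level and add no spread to the SE. A fit without any filter gave limma adjusted p = 1.37e-05. A second TERT probe set had 5.87, 4.38 and 4.63 in C-Myc-sh against 6.10, 6.69 and 6.52 in Ctrl-sh. It changed by -1.48 (SE 0.53, limma adjusted p = 0.0344 in a fit over single probe sets), in the same direction as the first and by less on the log2 scale.

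In Slc7a5-sh the TERT change was -0.0030, with a 95% confidence interval from -0.82 to 0.81 (limma adjusted p = 0.997). Changes within that interval were not excluded with 3 arrays a group. TERT was lower in C-Myc-sh than in Slc7a5-sh by a direct test (limma adjusted p = 1.01e-05). The difference was 3.90-fold with values under the filter level raised to it, again limited by that level. The second probe set was lower there as well (log2 change -1.61, SE 0.53, limma adjusted p = 0.0269, fit over single probe sets), with 2 of its 3 C-Myc-sh arrays below that level.

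The promoter window of TERT and that of NOP10 are shown because they were the only ones of the 8 windows found, each of 250 bases before to 50 bases after the gene's start, that held the E-box CACGTG, a palindrome that reads the same on both strands. TERF1 and TERF2 had no entry. Of all 27305 promoter windows of the same length, 7.43% held it. The match in TERT begins 163 bases upstream of the start, and those in NOP10 begin 170 and 11 bases upstream. The TERT window ends in the letters cacgt, and a match running past its edge would not be counted. The sequences are RefSeq's, build GRCh38.p14, with the E-box in capitals; the TERT stretch (chr5:1295186-1295271, minus strand) shows 40 bases on either side of the match and the NOP10 stretch (chr15:34343087-34343386, minus strand) the whole window.
TERT: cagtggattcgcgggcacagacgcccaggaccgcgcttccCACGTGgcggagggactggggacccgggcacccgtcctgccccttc
NOP10: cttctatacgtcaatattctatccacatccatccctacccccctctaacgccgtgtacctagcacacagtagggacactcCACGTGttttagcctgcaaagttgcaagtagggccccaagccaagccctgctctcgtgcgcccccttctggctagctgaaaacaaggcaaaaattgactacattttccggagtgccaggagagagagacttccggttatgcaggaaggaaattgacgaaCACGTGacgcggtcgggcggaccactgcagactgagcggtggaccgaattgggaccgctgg
A match is a run of letters, not a measured binding site, and windows without one say nothing about MYC binding elsewhere. Of the 2 genes with a match, TERT had the lowest and NOP10 the smallest change of the 9 in C-Myc-sh.

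The H/ACA proteins form one particle, with dyskerin (DKC1) as the pseudouridine synthase, NOP10 and NHP2 bound to it in the core, and GAR1 joining in the mature particle. NHP2 had log2 signals of 12.76, 12.66 and 12.83 in C-Myc-sh, 13.72, 13.64 and 13.72 in Slc7a5-sh, and 13.84, 13.84 and 13.86 in Ctrl-sh. The 3 groups did not overlap. NHP2 fell in C-Myc-sh to 46.7% of its control signal (log2 change -1.10, SE 0.05, limma adjusted p = 3.22e-10). For comparison, the MYC transcript itself was at 46.9% of control in the same arrays.

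GAR1 had 10.88, 11.02 and 11.08 in C-Myc-sh, 11.96, 11.89 and 11.91 in Slc7a5-sh, and 11.99, 11.94 and 11.86 in Ctrl-sh. It fell to 52.4% of control in C-Myc-sh (log2 change -0.93, SE 0.07, limma adjusted p = 2.07e-08). Its Slc7a5-sh and Ctrl-sh arrays overlapped, with a change of -0.0077 and a 95% confidence interval from -0.15 to 0.14.

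NOP10, the smallest protein of the particle, had 12.53, 12.90 and 12.96 in C-Myc-sh, 13.05, 12.88 and 13.20 in Slc7a5-sh, and 13.07, 13.13 and 12.99 in Ctrl-sh. The C-Myc-sh arrays lay below the control arrays, narrowly for the nearest pair, and overlapped those of Slc7a5-sh. The change against Ctrl-sh was -0.26 (SE 0.10; 95% confidence interval -0.48 to -0.05; limma adjusted p = 0.0398). That interval does not overlap those of NHP2 (-1.21 to -0.98) and GAR1 (-1.08 to -0.79). The NOP10 call was lost under quantile normalization (-0.10, limma adjusted p = 0.418) and without C-Myc-sh replicate 1 (-0.13, limma adjusted p = 0.218), and the other settings that ended it stand in the closing section.

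The 3 probe sets annotated jointly to DKC1, MIR664B and SNORA56 were each lower in C-Myc-sh, in a fit over single probe sets. The one whose listed accession is a RefSeq transcript had 12.24, 12.09 and 12.23 in C-Myc-sh, 13.16, 13.16 and 13.28 in Slc7a5-sh, and 13.25, 13.25 and 13.07 in Ctrl-sh. It was at 49.8% of control in C-Myc-sh (limma adjusted p = 1.82e-08), and the other two were at 49.4% and 44.9%. In Slc7a5-sh the log2 changes were 0.01, -0.05 and -0.17 in the same order, with limma adjusted p-values of 0.94, 0.57 and 0.135, so none passed. The joint symbols alone do not tell which of the 3 RNAs each reads, and this was not tested.

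In Slc7a5-sh, NHP2 was at 89.9% of control (log2 change -0.15, SE 0.05, limma adjusted p = 0.0464), just inside the threshold. The call was lost when any one of the 3 Slc7a5-sh or 3 Ctrl-sh arrays was left out, with changes between -0.17 and -0.13. NOP10 changed by -0.02 (limma adjusted p = 0.918). NHP2 and GAR1 were lower in C-Myc-sh than in Slc7a5-sh by a direct test (log2 changes -0.94 and -0.93, limma adjusted p = 2.47e-09 and 3.62e-08), and NOP10 at -0.24 missed the threshold there (limma adjusted p = 0.0595; 95% confidence interval -0.46 to -0.03).

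**Figure D2:**
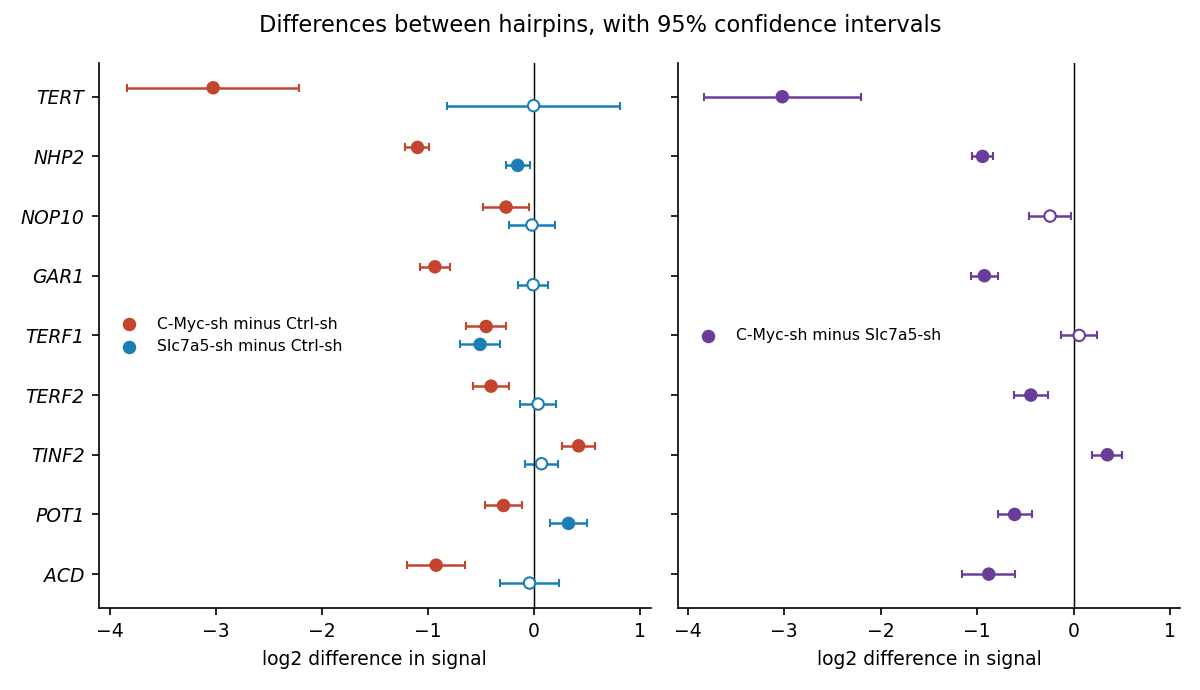
Log2 difference in signal (horizontal axis) of the 9 measured genes for C-Myc-sh and Slc7a5-sh against Ctrl-sh (left) and for C-Myc-sh against Slc7a5-sh (right), with 95% confidence intervals from limma. Filled points passed at an adjusted p under 0.05 and open points did not; POT1 is the gene whose filled points lie on opposite sides of 0, at -0.29 in C-Myc-sh and 0.33 in Slc7a5-sh.

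Among shelterin genes, ACD had the lowest change in C-Myc-sh. It had log2 signals of 9.45, 9.04 and 9.54 in C-Myc-sh, 10.03, 10.27 and 10.38 in Slc7a5-sh, and 10.24, 10.31 and 10.26 in Ctrl-sh. The C-Myc-sh arrays lay below all others. ACD fell to 52.8% of control (log2 change -0.92, SE 0.13, limma adjusted p = 2.08e-05) and was lower than in Slc7a5-sh by a direct test (-0.88, limma adjusted p = 4.27e-05). In Slc7a5-sh its change was -0.04 (95% confidence interval -0.32 to 0.23).

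POT1 moved in opposite directions under the 2 hairpins. It had log2 signals of 11.20, 11.02 and 11.11 in C-Myc-sh, 11.66, 11.69 and 11.81 in Slc7a5-sh, and 11.43, 11.53 and 11.23 in Ctrl-sh. The 3 groups did not overlap, with Slc7a5-sh highest and C-Myc-sh lowest. POT1 fell in C-Myc-sh (log2 change -0.29, SE 0.08, limma adjusted p = 0.00824) and rose in Slc7a5-sh (0.33, SE 0.08, limma adjusted p = 0.0095). The direct difference, which does not rest on the control arrays for its means, was -0.61 for C-Myc-sh against Slc7a5-sh (SE 0.08, limma adjusted p = 1.99e-05). The second POT1 probe set gave -0.24 in C-Myc-sh and 0.50 in Slc7a5-sh (limma adjusted p = 0.0328 and 0.00112, fit over single probe sets). The rise in Slc7a5-sh on the first probe set was 0.24 without Ctrl-sh replicate 3 and then missed the threshold (limma adjusted p = 0.0519).

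TERF1, which limits telomere length through the double-stranded repeats it binds, had log2 signals of 11.54, 11.27 and 11.33 in C-Myc-sh, 11.50, 11.29 and 11.17 in Slc7a5-sh, and 11.81, 11.81 and 11.86 in Ctrl-sh. Both knockdowns lay below the control arrays and overlapped each other. TERF1 fell by 0.45 on the log2 scale in C-Myc-sh (SE 0.09, limma adjusted p = 0.00045) and by 0.51 in Slc7a5-sh (SE 0.09, limma adjusted p = 0.000729). The 2 TERF1 probe sets disagreed in Slc7a5-sh: the second changed by -0.04 there (SE 0.07, limma adjusted p = 0.718) and by -0.37 in C-Myc-sh (limma adjusted p = 0.000516, fit over single probe sets). Their average still passed in Slc7a5-sh, at -0.28 (limma adjusted p = 0.00984).

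TERF2, which protects ends from being joined, had 10.34, 10.18 and 10.37 in C-Myc-sh, 10.80, 10.72 and 10.70 in Slc7a5-sh, and 10.68, 10.79 and 10.63 in Ctrl-sh. The C-Myc-sh arrays were the lowest 3, and the other 2 groups overlapped. TERF2 fell in C-Myc-sh (log2 change -0.40, SE 0.08, limma adjusted p = 0.000594) and changed by 0.04 in Slc7a5-sh (limma adjusted p = 0.766). Of its 5 probe sets all were lower on average in C-Myc-sh than in Ctrl-sh, between -1.04 and -0.20, and 2 of them passed.

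TINF2 was the gene of the set that rose in C-Myc-sh. It had 11.02, 10.96 and 11.11 in C-Myc-sh, 10.73, 10.65 and 10.66 in Slc7a5-sh, and 10.61, 10.55 and 10.67 in Ctrl-sh. Every C-Myc-sh array lay above the other 6. TINF2 was at 133.9% of control in C-Myc-sh (log2 change 0.42, SE 0.07, limma adjusted p = 0.000171) and above Slc7a5-sh by 0.35 (SE 0.07, limma adjusted p = 0.001). Its other 2 probe sets changed by 0.35 and 0.28 in C-Myc-sh, of which the first passed (limma adjusted p = 0.00285) and the second did not (limma adjusted p = 0.182). All 3 end in _s_at or _x_at, a suffix for probe sets that can also bind related transcripts, as do those of NHP2, TERF1 and ACD. In Slc7a5-sh the TINF2 change was 0.07 (limma adjusted p = 0.524).

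**Figure D3:**
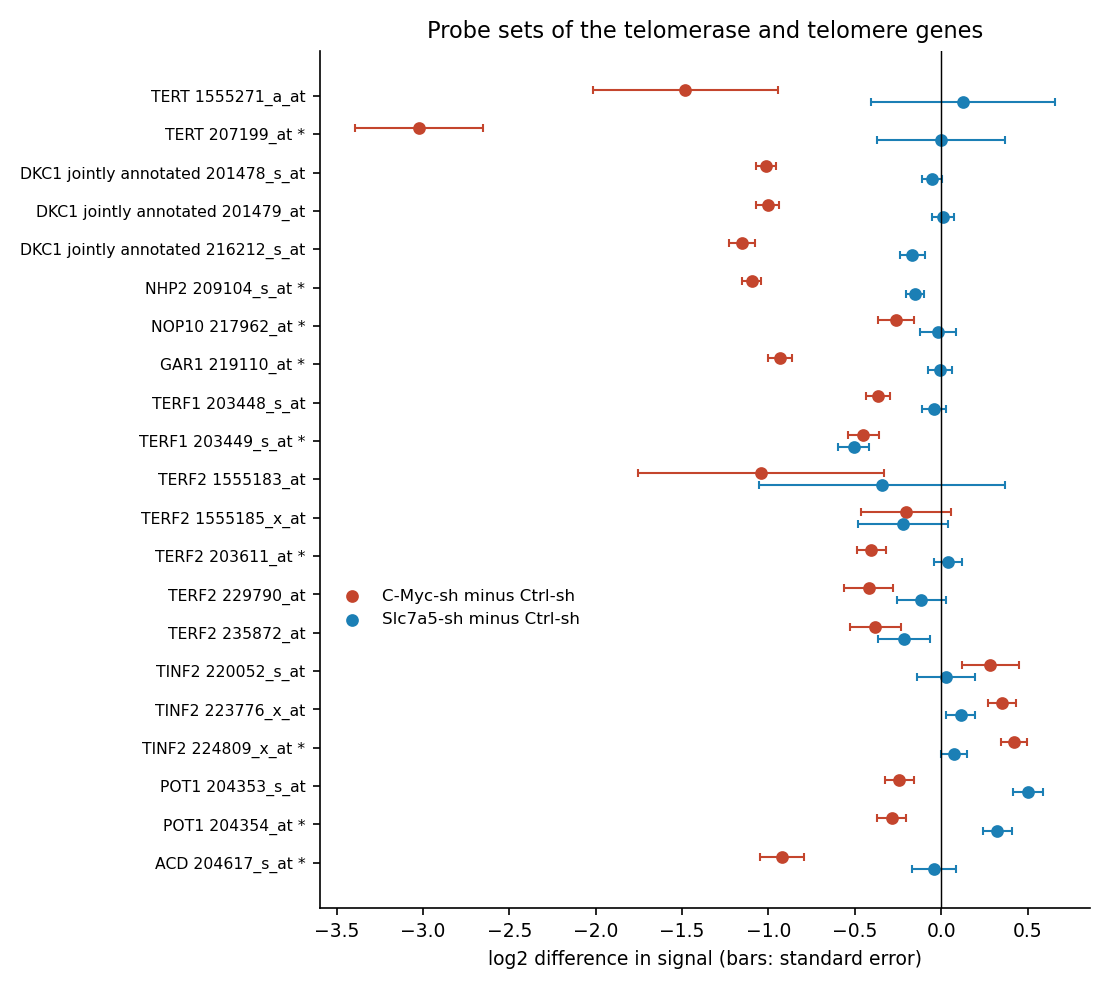
Log2 difference in signal against Ctrl-sh (horizontal axis) for each probe set of the 10 genes, in C-Myc-sh and Slc7a5-sh, with bars of 1 standard error from a fit over single probe sets. A star marks the probe set used for a gene; the 2 of TERF1 separate in Slc7a5-sh (-0.51 and -0.04), while the 2 of POT1 lie on the same side of 0 within each knockdown.

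Directly between the knockdowns, 7 of the 9 genes differed, where 49.5% of all tested genes did: TERT, NHP2, GAR1, TERF2, POT1 and ACD were lower in C-Myc-sh, where 25.1% of tested genes were lower, and TINF2 was higher, as were 24.4%. NOP10 and TERF1 did not pass, with TERF1 at 0.06 (95% confidence interval -0.13 to 0.24). The second TERF1 probe set, whose mean log2 signal over the 9 arrays was 11.36 beside 11.51 for the first, was lower in C-Myc-sh than in Slc7a5-sh (-0.32, limma adjusted p = 0.00177, fit over single probe sets), so the TERF1 result between the knockdowns depends on the probe set.

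Other genes of the pathway were read from lists chosen by function, with earlier results of these data known. Factors that assemble telomerase or process its RNA had 12 tested members, of which 8 fell and 2 rose in C-Myc-sh, with a median log2 change of -0.36 against 0.04 over all tested genes, of which 26.2% fell and 28.7% rose. RUVBL2 and RUVBL1, paired ATPases needed for particle assembly, changed by -1.17 and -1.01 (SE 0.07 and 0.09, limma adjusted p = 2.6e-09 and 2.56e-07). WRAP53 (TCAB1), which brings the RNA to Cajal bodies, changed by -0.87 and the H/ACA assembly factor NAF1 by -0.49. COIL, the coilin scaffold of Cajal bodies, and the nucleolar ATPase NVL went the other way, at 0.55 and 0.45. In Slc7a5-sh 3 of the 12 rose and 1 fell, where 14.3% of all tested genes rose and 11.0% fell, with a median of 0.01 against 0.03. COIL (0.51), NVL (0.55) and ZCCHC8 (0.26), which takes part in trimming the RNA, rose, and NAF1 fell (-0.42).

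Partners of shelterin and other telomere-bound factors had 11 tested members, 4 up and 4 down in C-Myc-sh, where 28.7% of all tested genes rose and 26.2% fell (median -0.24 against 0.04). The tankyrases TNKS2 and TNKS, which modify TERF1 and release it from telomeres, rose by 0.63 and 0.56 (limma adjusted p = 5.1e-07 and 5.09e-05). The nuclease DCLRE1B (Apollo), recruited by TERF2, changed by -0.90 (limma adjusted p = 1.87e-05). TERF2IP (RAP1), the remaining shelterin subunit and bound to TERF2, rose in C-Myc-sh by 0.29 and in Slc7a5-sh by 0.17 (limma adjusted p = 0.00048 and 0.0353). In Slc7a5-sh it was the 1 gene of this list that rose, RIF1 (-0.31) was the 1 that fell (14.3% and 11.0% of all tested genes, with a median of 0.17 against 0.03), and the telomerase inhibitor PINX1 missed the threshold at 0.30 (limma adjusted p = 0.0588). PINX1 fell in C-Myc-sh (-0.65, limma adjusted p = 0.000142).

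The CST complex and the polymerase alpha primase it recruits to fill in the complementary strand had 6 tested members, 3 down and 0 up in C-Myc-sh (median -0.56 against 0.04). The 3 of 6 called are near the 54.9% called over all tested genes, of which 26.2% fell. Those 3 were the polymerase and primase subunits POLA2 (-1.28), POLA1 (-0.84) and PRIM1 (-0.67), which also replicate the rest of the genome. The CST subunits CTC1 (0.03) and STN1 (-0.36) did not pass (limma adjusted p = 0.958 and 0.115). POLA2 (-0.54) and POLA1 (-0.27) fell in Slc7a5-sh as well, as 2 of 6, with 0 up, where 11.0% of all tested genes fell and 14.3% rose (median -0.15 against 0.03).

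Chromatin and end-repair factors had 11 tested members, 5 down and 4 up in C-Myc-sh, where 54.9% of all tested genes were called (median -0.08 against 0.04). In Slc7a5-sh 2 were down and 2 up, near the 25.3% called over all tested genes (median 0.02 against 0.03). BLM, a helicase that unwinds telomeric structures, fell in both, to 35.4% of control in C-Myc-sh and 73.0% in Slc7a5-sh. RPA3, a subunit of the single-strand binding protein RPA, fell in C-Myc-sh (-0.49). RAD50 and the kinase ATM rose in both, by 0.44 and 0.77 in C-Myc-sh and by 0.43 and 0.52 in Slc7a5-sh. NBN, which works with RAD50 and MRE11, rose in C-Myc-sh (0.92) and fell in Slc7a5-sh (-0.24). The box C/D particle is the methylation-guiding counterpart of the H/ACA particle. Of its protein genes 3 were tested, and NOP56 had no probe set of its own symbol. All 3 tested genes fell in C-Myc-sh, where 26.2% of all tested genes fell (median -0.97 against 0.04): SNU13 by 1.01, FBL by 0.97 and NOP58 by 0.15. In Slc7a5-sh 1 of the 3, NOP58, rose (0.31) and 0 fell, where 14.3% of all tested genes rose and 11.0% fell (median -0.07 against 0.03).

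**Figure D4:**
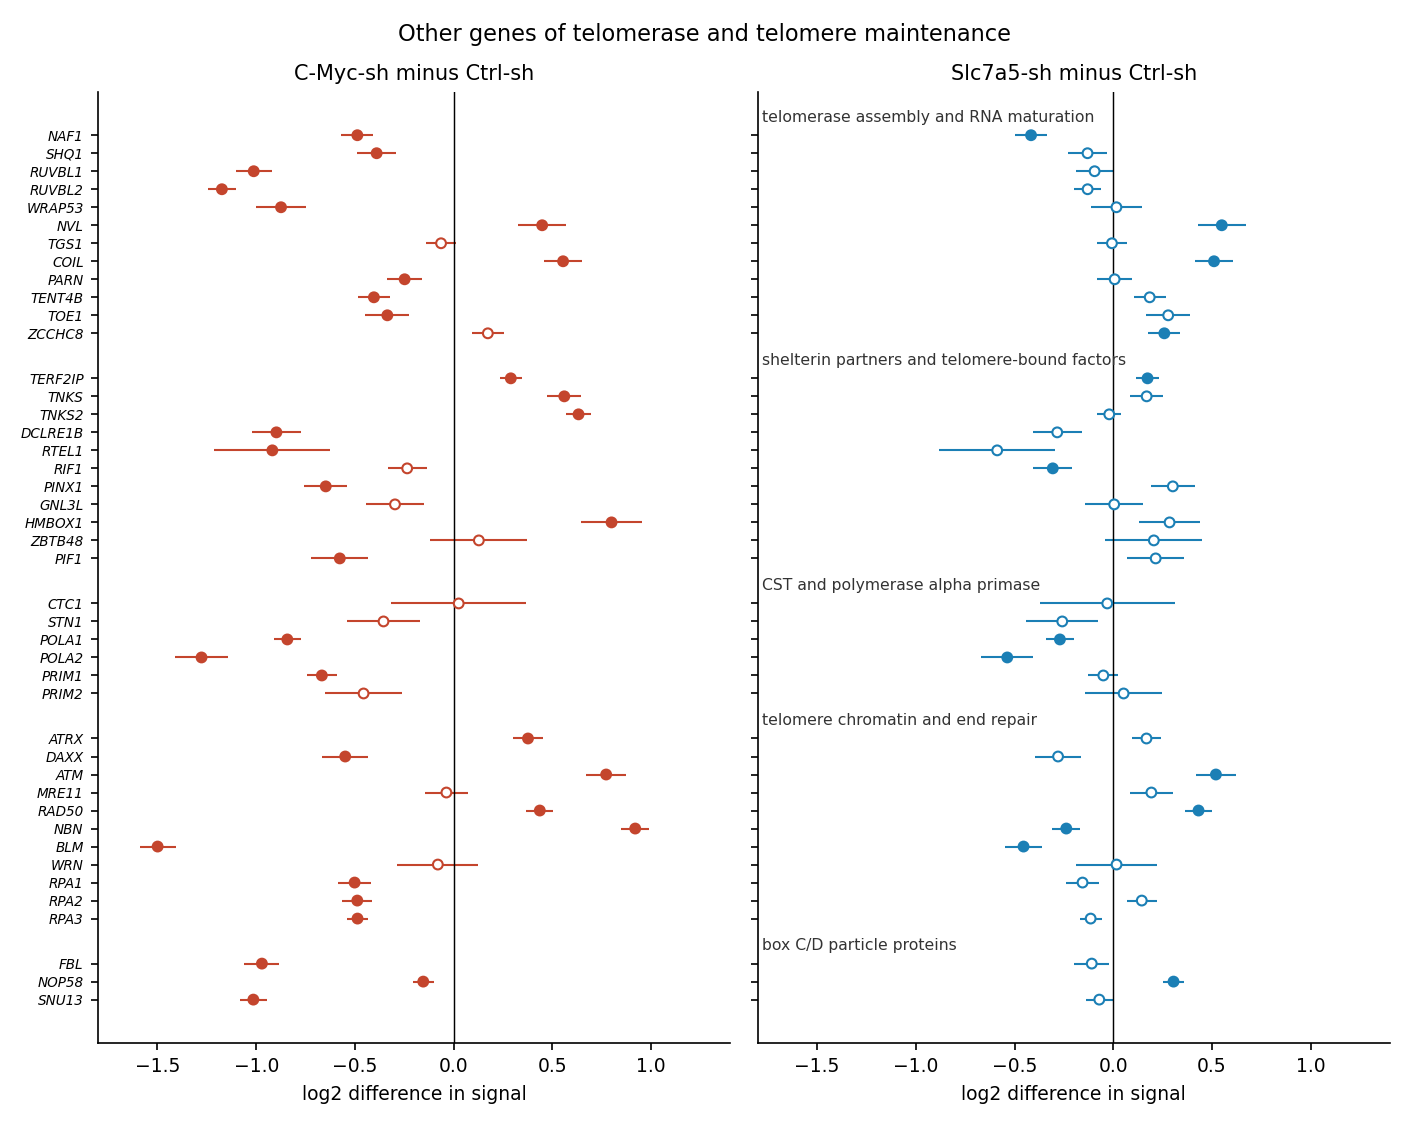
Log2 difference in signal (horizontal axis) for the tested genes of 5 lists, C-Myc-sh against Ctrl-sh (left) and Slc7a5-sh against Ctrl-sh (right), with bars of 1 standard error and filled points for genes that passed at an adjusted p under 0.05. In C-Myc-sh, 8 of 12 assembly factors and 3 of 3 box C/D proteins are filled on the lower side, against 1 and 0 in Slc7a5-sh.

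By Pearson correlation over the 9 arrays, the tested genes most like TERT were EMSLR, CCNQ and YDJC (r 0.992, 0.989 and 0.989). By rank they followed TERT less closely (Spearman rho 0.93, 0.82 and 0.72). The genes most like POT1 were OCIAD1, RANGAP1 and DPH5 (Pearson r 0.989, 0.978 and 0.972, Spearman rho 1, 0.98 and 0.98). These values describe 9 arrays in 3 groups, which share their group means, and DKC1 was left out as it had no probe set of its own. The changes of these genes in C-Myc-sh were -2.74, -0.56 and -1.06 for the first 3 and -0.25, -0.37 and -0.26 for the other 3, and in Slc7a5-sh -0.19, -0.05 and 0.02, and 0.20, 0.36 and 0.23.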

How the data were processed

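Biotin-labelled cRNA was made from total RNA with a kit that amplifies from transcripts' 3' ends, per the labels' protocols, and read on arrays. The authors deposited log2 signals for 54613 probe sets on 9 arrays; the submitters' processing notes name MAS5, without a version. That base was inferred: after undoing it, the mean with 2% trimmed at each end was 497 on every array to the nearest whole number. Groups came from the sample titles. Detection calls were not used here.

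Platform annotation gave 41091 probe sets exactly 1 symbol, 1801 several and 11721 none; 41037 were matched to RefSeq by Entrez ID. The probe set with the highest mean over 9 arrays was kept for a gene. Genes at or above the median probe-set mean were tested with limma 3.58.1 in R 4.3.3: 1 fit of 3 group means, eBayes with trend, two-sided contrasts, Benjamini-Hochberg adjustment over 11250 genes. The code was tested on simulated data.

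The genes and lists were chosen with earlier results of these data known. The naming rule was SLC7A5 and MYC, the 10 genes, the 3 genes of each list with the smallest p in each comparison with Ctrl-sh and those against its direction, and the 3 genes most like TERT and POT1; DKC1, also in the rule, had no usable probe set. Not every gene under this rule is printed for every comparison. Further genes were named after their values were seen: ZCCHC8, CTC1, NBN in Slc7a5-sh, and NAF1, STN1, TERF2IP and PINX1 in C-Myc-sh. The fit over single probe sets (27307 tested) was added after seeing the data. Of listed genes, TERC, GNL3, TEP1, TEN1 and NOP56 had no probe set of their own symbol and are not analysed here; SMG6 was below the filter. Alternatives were another normalization, filter, probe-set rule, variance model, arrays fitted, a replicate block and leaving out each array.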

Additional observations from a re-analysis of the deposited data

How the results depend on the processing

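The falls of TERT, NHP2, GAR1, TERF1, POT1, ACD and TERF2 and the rise of TINF2 in C-Myc-sh kept their direction and their call in every alternative that tested them. Averaging each gene's probe sets gave 1581 called of 10176 tested genes in Slc7a5-sh, against 2843 of 11250 with the brightest probe set. With that averaging TERF2 missed the threshold in the direct comparison (-0.32). Without the _s_at and _x_at probe sets only 5 of the 9 genes could be tested, of which 5 were called in C-Myc-sh, 1 in Slc7a5-sh and 4 in the direct comparison. Of all 8817 genes tested there, 4568, 2009 and 4020 were called in the same order. NOP10 lost its call in C-Myc-sh with quantile normalization (-0.10), with the mean of all probe sets or without the trend (-0.26 in both), and without Ctrl-sh replicate 1 (-0.26), Ctrl-sh replicate 2 (-0.23), Slc7a5-sh replicate 1 (-0.26) or C-Myc-sh replicate 1 (-0.13). In the direct comparison, where it had missed the threshold, NOP10 passed with the filter level at 8.71 (-0.24, limma adjusted p = 0.0434). It also passed there in 3 fits that left out 1 array. In Slc7a5-sh, NHP2 lost its call without the filter, with the mean of all probe sets, without the trend and with the replicate block (-0.15 each). Leaving out 1 array gave 1 to 3 called genes of the 9 in Slc7a5-sh, and 2246 to 2811 of all 11250 tested. The lowest count of the 9, with TERF1 alone passing, came without Ctrl-sh replicate 3. Some changes that had not passed turned in sign and still did not pass. These were in Slc7a5-sh NOP10 with quantile normalization (0.0070), and TERF2 (-0.17) and TERT (0.061) with the mean of all probe sets, and in the direct comparison TERF1 with that mean (-0.13). Leaving out 1 array moved TERT between -0.19 and 0.15, NOP10 between -0.10 and 0.066, GAR1 between -0.042 and 0.023 and ACD between -0.12 and 0.055 in Slc7a5-sh, and TERF1 between -0.023 and 0.15 in the direct comparison. The causes were not tested. Replicate numbers did not pair the arrays: deviations of same-numbered arrays correlated at -0.023 to 0.018, and 2 of 9 arrays correlated best with their own number. With the replicate block 9, 2 and 7 of the 9 genes were called in C-Myc-sh, Slc7a5-sh and directly, and 6147, 2775 and 5526 genes in all. Signal near background limits TERT in C-Myc-sh.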
